A study of Homo sapiens with 24 samples.

Results

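RNA of genes that carry, activate or inactivate decitabine, or that make the nucleotides it competes with, was followed in 2 human acute myeloid leukaemia cell lines. The 10 members, taken by symbol, were DCK, CDA, SLC29A1, SLC29A2, DCTD, SAMHD1, RRM1, RRM2, CMPK1 and TYMS, out of 76075 genes and unnamed transcripts in the deposited tables. UCSD-AML1 and ELF-153 were grown in medium with 20% serum and 5 ng/ml GM-CSF, and were either left untreated or given 100 nM decitabine (DAC) freshly on each of 4 days. RNA was taken at 96 h or at 144 h, which gave 8 groups of line, treatment and harvest with 3 libraries each (24 in all). The libraries are labelled technical triplicates of single lines, so any p-value below reflects how far such libraries scatter, which may be technical error alone.

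Decitabine is a deoxycytidine analogue that enters cells through nucleoside transporters and acts only after phosphorylation. Deoxycytidine kinase (DCK) adds the first phosphate and the UMP-CMP kinase CMPK1 the next one. Cytidine deaminase (CDA) inactivates the drug, dCMP deaminase (DCTD) acts on its monophosphate, and the dNTP hydrolase SAMHD1 can remove its triphosphate. The competing natural deoxynucleotides come from ribonucleotide reductase, built from the subunits RRM1 and RRM2, while thymidylate synthase (TYMS) makes dTMP from dUMP; RRM2 and TYMS RNA is known to be high in dividing cells.

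The 250 bases upstream of the annotated start of 4 members are shown because DAC blocks methylation at CpG sites and these 4, on which the results turn, differ widely in CpG content (RefSeq, GRCh38.p14; 5′ to 3′ on the gene's strand; every CpG in capitals). SAMHD1 lies at chr20:36951709-36951958 on the minus strand, CDA at chr1:20588847-20589096, DCK at chr4:70993399-70993648 and TYMS at chr18:657403-657652, these 3 on the plus strand.
SAMHD1: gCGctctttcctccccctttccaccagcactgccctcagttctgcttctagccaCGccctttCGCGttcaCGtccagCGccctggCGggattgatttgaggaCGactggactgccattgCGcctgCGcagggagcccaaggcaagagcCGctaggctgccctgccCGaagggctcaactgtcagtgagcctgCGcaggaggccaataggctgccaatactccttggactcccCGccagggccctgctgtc
CDA: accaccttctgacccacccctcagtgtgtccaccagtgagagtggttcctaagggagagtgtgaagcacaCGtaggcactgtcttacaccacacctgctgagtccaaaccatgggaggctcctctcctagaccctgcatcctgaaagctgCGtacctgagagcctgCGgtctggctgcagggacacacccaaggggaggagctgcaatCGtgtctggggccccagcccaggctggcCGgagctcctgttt
DCK: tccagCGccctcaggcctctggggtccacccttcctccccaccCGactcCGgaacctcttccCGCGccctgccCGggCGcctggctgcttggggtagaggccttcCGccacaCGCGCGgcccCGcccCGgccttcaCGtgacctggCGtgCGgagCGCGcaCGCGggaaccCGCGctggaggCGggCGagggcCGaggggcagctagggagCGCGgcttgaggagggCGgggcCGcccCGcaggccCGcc
TYMS: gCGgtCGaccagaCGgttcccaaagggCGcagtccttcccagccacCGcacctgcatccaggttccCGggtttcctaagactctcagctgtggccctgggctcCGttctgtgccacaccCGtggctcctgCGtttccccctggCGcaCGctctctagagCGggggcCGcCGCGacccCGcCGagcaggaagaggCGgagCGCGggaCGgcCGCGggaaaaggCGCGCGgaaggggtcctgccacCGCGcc

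The CpG count was 14 for SAMHD1, 5 for CDA, 31 for DCK and 28 for TYMS, against a median of 11 over 35116 promoter windows of the same length. CDA thus held fewer CpG than the median window and the other 3 held more. An entry was found for 9 members, and SLC29A2 was the member without one. A CCAAT box, searched as CCAAT on both strands, occurred 2 times in the SAMHD1 window and 3 times in the first RRM2 window. It occurred 1 time each in the RRM1 window and the second RRM2 window, and 32% of all windows held at least 1. An E2F word (TTTCCCGC, TTTCGCGC, TTTGCCGC or TTTGGCGC, both strands) occurred 1 time in the TYMS window, and 2.79% of all windows held one. Such matches describe letters only, and DNA methylation was not analysed here.

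Levels are given as the gene sum, the deposited scaled reads of all transcripts of a gene added together. Values of the 2 harvests were scaled separately, so no level or change was tested across them. Reads appear to have been counted only where they are unique to a transcript, so the sums do not compare between genes. For SAMHD1 and CMPK1 nearly the whole sum lay on 1 protein-coding transcript (99.9% on SAMHD1-201 and 99.4% on CMPK1-203 at 96 h). For DCK, 60.9% lay on DCK-202, annotated as a target of nonsense-mediated decay, and for SLC29A1 51.2% lay on the retained-intron transcript SLC29A1-210. Coding transcripts held 22.3% of the RRM1 sum, 27% of the RRM2 sum and 33.2% of the TYMS sum at 96 h.

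**Figure D1:**
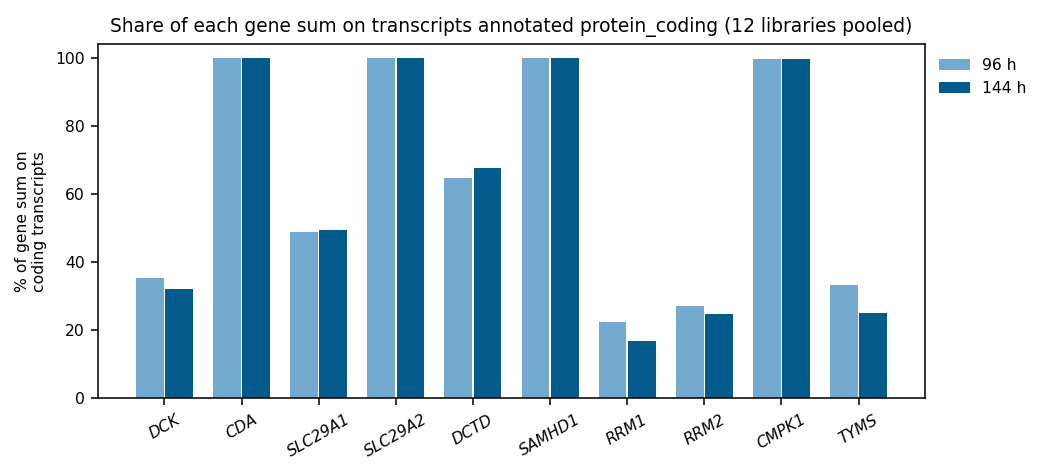
Bars give the percentage of each member's gene sum that lay on transcripts annotated as protein-coding, over the 12 libraries of the 96 h table (light) and of the 144 h table (dark). SAMHD1, CMPK1, CDA and SLC29A2 stand at or near 100%, whereas RRM1, at 22.3% at 96 h, and RRM2, at 27%, are read mostly from other transcripts.

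Read depth ran from 13.15 to 28.53 M reads per library. Mitochondrial ribosomal RNA took 49.3% to 51.3% of the reads of untreated UCSD-AML1 at 96 h and 61.7% to 63.8% after treatment. In ELF-153 at 96 h it took 13.1% to 35% without and 37.3% to 49.8% with the drug. At 144 h the shares overlapped in UCSD-AML1 (44.5% to 52.1% untreated, 38.7% to 58.4% treated) and did not in ELF-153 (16.6% to 38.2% and 42.8% to 53.6%). Of 7 haematopoietic genes (PTPRC, SPN, CD33, CD34, KIT, MPO, MECOM) all but MPO had reads in every group, and MPO was at 0 in 5 of 8 groups. Of 6 tested, 4 were lower with DAC in UCSD-AML1 at each harvest and 0 higher. In ELF-153, 2 were lower and 1 higher at 96 h, and 3 lower and 1 higher at 144 h. Of all features, 19.6% and 26.2% were lower in UCSD-AML1 and 12.7% and 18% in ELF-153. At 96 h the summed level of the 7 genes went from 11743 to 12699 down to 6231 to 6974 in UCSD-AML1. In ELF-153 it went from 6356 to 7315 down to 5325 to 5773. All 5 megakaryocyte genes (ITGA2B, ITGB3, PF4, GP9, TUBB1) were higher with DAC in both lines at both harvests. For this and the lists below, the shares of all features higher were 19.7% and 20% in UCSD-AML1 at 96 h and 144 h. In ELF-153 they were 20.1% and 20.4%. The summed level of the megakaryocyte genes in ELF-153 at 96 h went from 313 to 429 untreated to 3430 to 4727 treated. In UCSD-AML1 the megakaryocyte sum went from 9715 to 11241 up to 56828 to 65359 at the same harvest. The summed level of 5 erythroid genes went from 161 to 205 up to 2747 to 4845 in ELF-153 at 96 h and from 6.31 to 14.7 up to 434 to 740 in UCSD-AML1, with ALAS2 at 0 in all untreated groups. The sum of 6 granulocyte and monocyte genes went from 127 to 241 up to 1205 to 1540 in ELF-153 at 96 h (2 of 2 tested genes higher) and from 218 to 267 up to 356 to 448 in UCSD-AML1 (1 of 2 higher), with ELANE and FCGR3B at 0 in every group. At 144 h it went from 207 to 269 up to 1429 to 1748 in ELF-153 (2 of 3 higher) and from 179 to 338 up to 373 to 438 in UCSD-AML1 (1 of 3 higher). The sum of 4 lymphocyte genes, with MS4A1 at 0 in every group, went from 14.6 to 38.1 up to 46.2 to 89 in ELF-153 at 96 h and from 16 to 19 up to 39.3 to 63.3 at 144 h, where NKG7, the 1 gene tested, was higher (1.56 on the log2 scale, adjusted p = 0.00536); in UCSD-AML1 it stayed at 16.6 or less. The sum of 3 epithelial and stromal genes, with EPCAM at 0 in every group, went from 1.19 to 4.42 up to 26.9 to 55.2 in UCSD-AML1 at 144 h, where COL1A1, the 1 gene tested, was higher (3.56, adjusted p = 7.06e-05). In the other groups at 144 h the sum was at most 5.49. COL1A1 thus reached the level for testing, given below, only through the treated UCSD-AML1 libraries, and its call is not independent of that filter. At 96 h this sum went from 2.36 to 3.15 up to 6.74 to 49.2 in UCSD-AML1, and in ELF-153 it was at most 6.85. What these lists and the mitochondrial share contribute to the member values was not tested, apart from a fit with the share as a covariate. The shares of treated and untreated libraries did not overlap at 96 h in either line, nor in ELF-153 at 144 h. Those of the untreated lines did not overlap at either harvest. In these comparisons the fit cannot separate the share from treatment or line.

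A gene was tested when its sum reached 10 in at least 3 of the 12 libraries of a table, and called at an adjusted p below 0.05 in limma. At 96 h 8 members were tested, without CDA and SLC29A2, and at 144 h 9 were tested, without SLC29A2. In UCSD-AML1 at 96 h 0 members were higher, beside 19.7% of the 18799 features tested, and 4 were lower (SAMHD1, RRM1, RRM2, TYMS), beside 19.6% (39.2% in either direction). At 144 h 0 were higher, beside 20% of 18293 features, and 4 were lower (SAMHD1, RRM2, CMPK1, TYMS), beside 26.2% (46.1% in either direction). In ELF-153 at 96 h 2 were higher (SAMHD1, CMPK1), beside 20.1%, and 5 lower (DCK, SLC29A1, DCTD, RRM2, TYMS), beside 12.7% (32.7% in either direction). At 144 h 1 was higher (SAMHD1), beside 20.4%, and 4 lower (DCK, SLC29A1, RRM2, TYMS), beside 18% (38.4% in either direction).

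Between the untreated lines at 96 h, 1 member was higher in ELF-153 (RRM2), beside 22.8% of features, and 2 lower (SAMHD1, CMPK1), beside 34.7% (57.5% in either direction). At 144 h 2 were higher (RRM2, TYMS), beside 28.9%, and 3 lower (CDA, SAMHD1, CMPK1), beside 22.9% (51.8% in either direction). CDA was not tested at 96 h and passed the filter at 144 h only through libraries of UCSD-AML1, the line where it was higher. Its place among the lower members is thus partly set by the filter, and the counts of the 2 harvests do not compare directly. The DAC effect differed between the lines, with a higher value in ELF-153, for 4 members at 96 h (SAMHD1, RRM2, CMPK1, TYMS), beside 16.4% of features, and with a lower value for 0, beside 8.62% (25% in either direction). At 144 h it was higher for 2 (SAMHD1, CMPK1), beside 19.4%, and lower for 1 (SLC29A1), beside 10.2% (29.6% in either direction). TMM scaling moved the median of all features between the untreated lines at 96 h from -0.22 to 0.01 and that of the line differences in DAC effect from 0.18 to -0.01, and the share of higher among called features from 39.7% to 50.1% and from 65.6% to 53%. The median change of the tested members was -0.64 and -0.75 on the log2 scale in UCSD-AML1 at 96 h and 144 h, and -1.15 and -0.78 in ELF-153, against -0.02, -0.12, 0.16 and 0.11 over all features. All log2 changes are on log2(gene sum + 1), which understates the change of low genes.

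**Figure D2:**
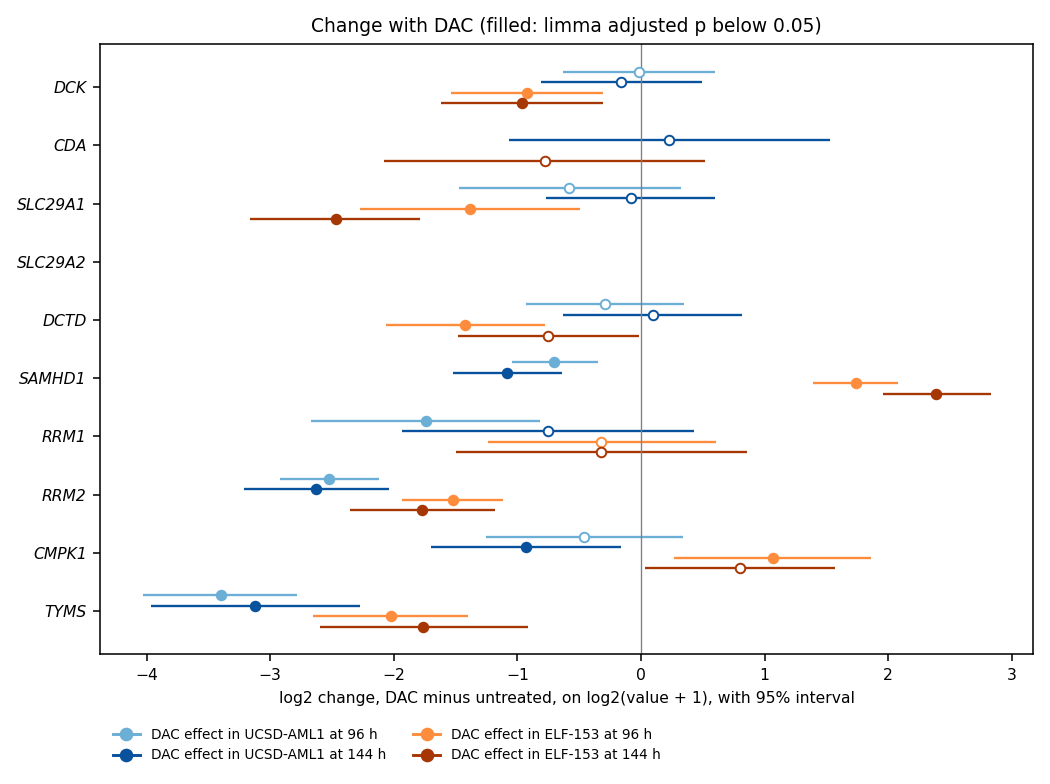
Points give the log2 change with DAC of each member that was tested, on log2(gene sum + 1), and lines the 95% interval; blue is UCSD-AML1 and orange ELF-153, lighter at 96 h and darker at 144 h, and filled points are called. SAMHD1 lies left of 0 in UCSD-AML1 (-0.70 and -1.08) and right of 0 in ELF-153 (1.74 and 2.39), while RRM2 and TYMS lie left of 0 in all 4 comparisons.

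**Figure D3:**
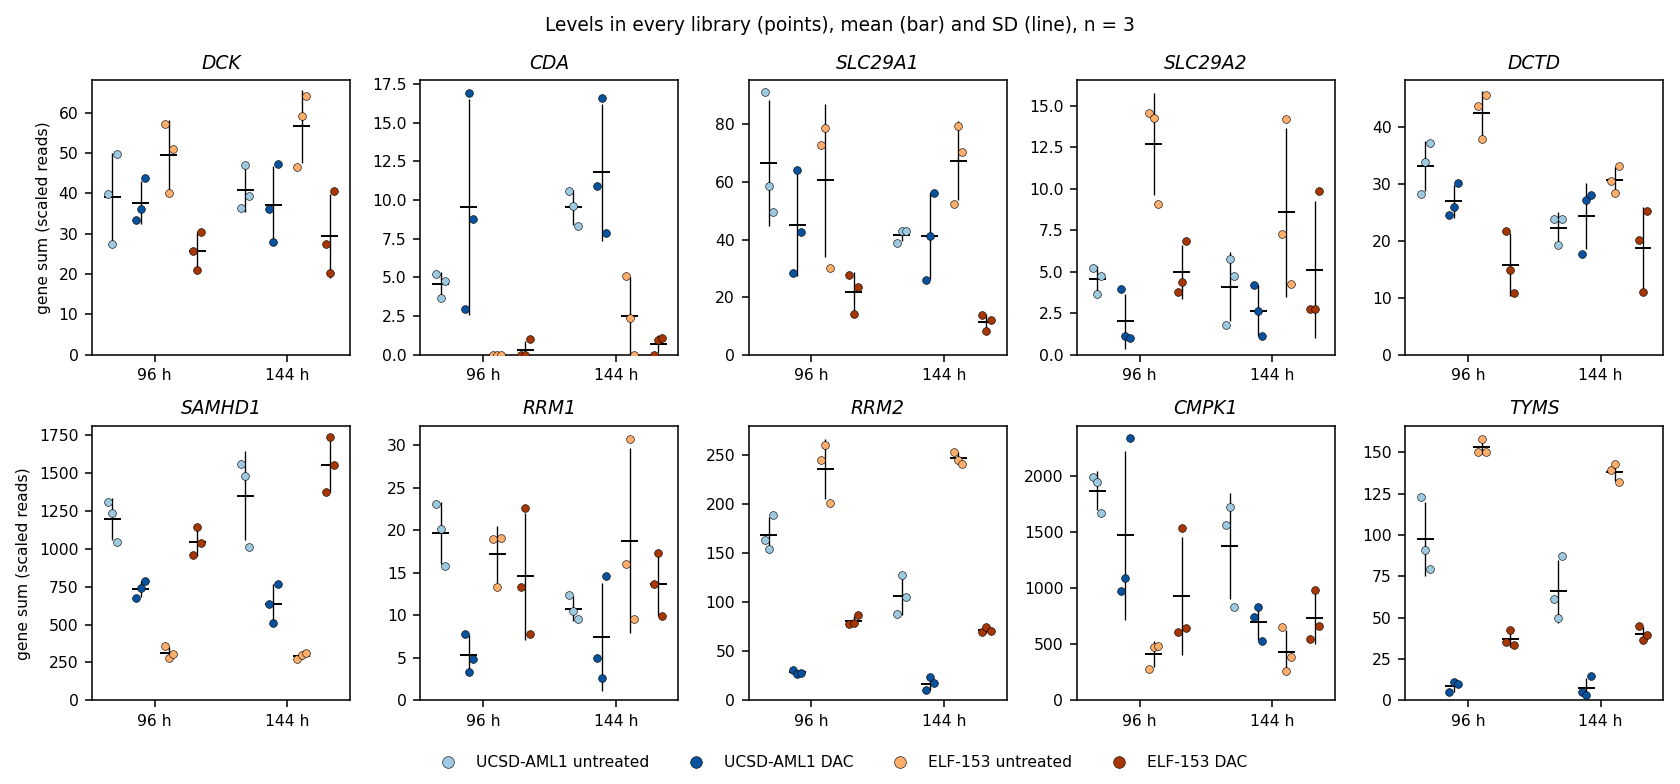
Each panel gives the gene sum (scaled reads, linear axis from 0) of 1 member in all 24 libraries; points are libraries, bars the mean and lines the SD of 3, with untreated and treated UCSD-AML1 in light and dark blue and untreated and treated ELF-153 in light and dark orange. SAMHD1 forms a crossed pattern, from 314 to 1046 in ELF-153 and from 1197 to 735 in UCSD-AML1 at 96 h, and the scales differ between panels.

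SLC29A1, the equilibrative transporter ENT1 that carries nucleosides and decitabine across the plasma membrane, fell in ELF-153. There its gene sums were 72.8, 78.9 and 30.1 untreated and 27.5, 14 and 23.5 with DAC at 96 h, and 52.3, 79.4 and 70.5 untreated and 13.7, 8.26 and 12.1 with DAC at 144 h. The groups did not overlap, but untreated replicate 3 at 96 h lay close to the treated libraries. The change was -1.38 ± 0.42 (adjusted p = 0.0207) at 96 h and -2.47 ± 0.32 (adjusted p = 4.54e-05) at 144 h.

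In UCSD-AML1 the SLC29A1 sums were 91.2, 58.7 and 49.7 untreated and 28.5, 64.1 and 42.7 with DAC at 96 h, and 38.9, 43.1 and 42.9 untreated and 26, 41.1 and 56.3 with DAC at 144 h. The groups overlapped at both harvests, and neither change was called (-0.58 ± 0.42, 95% interval -1.47 to 0.32, and -0.08 ± 0.32, -0.77 to 0.60). The lines' changes differed at 144 h, by -2.39 ± 0.45 (adjusted p = 0.0028), and the difference was not called at 96 h (-0.80 ± 0.59, adjusted p = 0.337). The ELF-153 call at 96 h was lost without untreated replicate 1 (adjusted p = 0.0641), untreated replicate 2 (0.0684) or treated replicate 2 (0.0879), and with the mitochondrial covariate (-0.89, adjusted p = 0.361); the call at 144 h held in all these settings.

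The coding transcript SLC29A1-208 had reads in untreated UCSD-AML1 and none in untreated ELF-153. It was at 21, 12.8 and 15 in untreated UCSD-AML1 at 96 h and at 0 in all 3 untreated ELF-153 libraries, and the same split was seen at 144 h (16.8, 12.5 and 10.7 against 0). Other coding transcripts had reads in both untreated lines, with SLC29A1-207 at 13.6, 1.83 and 1.58 in UCSD-AML1 and 25.8, 10.2 and 6.38 in ELF-153 at 96 h. SLC29A1-205 at 144 h was at 3.54, 7.67 and 7.16 in untreated UCSD-AML1 and at 0 in all 3 treated libraries. In ELF-153 at 144 h the fall was shared by SLC29A1-205, from 10.2, 17.8 and 11.7 to 0.914, 0 and 0, and by SLC29A1-210, from 31.9, 41.5 and 50.2 to 10.1, 5.51 and 5.49. Transcripts were not tested.

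SLC29A2, the related transporter ENT2, was below the level for testing in both tables. Its sums ran from 0.971 to 14.6 over the 24 libraries, or at most 14 reads, and the highest mean was that of untreated ELF-153 at 96 h (12.7 ± 3.08, SD, n = 3). Treated ELF-153 libraries at 96 h held 3.79, 4.36 and 6.85, below the untreated 14.6, 14.3 and 9.11.

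Of 8 other transport genes listed, 3 were tested. ABCC4, an exporter of nucleotide analogues, rose in all 4 comparisons, by 2.31 ± 0.30 (adjusted p = 5.14e-05) and 3.30 ± 0.37 (adjusted p = 1.84e-05) in UCSD-AML1 and by 2.11 ± 0.30 (adjusted p = 0.000122) and 2.72 ± 0.37 (adjusted p = 7.82e-05) in ELF-153. SLC29A3, an equilibrative transporter of intracellular membranes, fell in ELF-153 by 0.76 ± 0.18 (adjusted p = 0.00459) and 0.69 ± 0.22 (adjusted p = 0.0242) and was not called in UCSD-AML1 (0.04 ± 0.18 and -0.21 ± 0.22); the lines differed at 96 h (-0.80 ± 0.25, adjusted p = 0.0327) and were not called different at 144 h (-0.48 ± 0.31).

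DCK, the activating kinase, fell with DAC in ELF-153 and was not called in UCSD-AML1, and the difference between the lines did not pass the test. In ELF-153 its sums were 57.1, 40 and 51 untreated and 25.6, 20.9 and 30.3 with DAC at 96 h, and 46.5, 59.2 and 64.1 untreated and 27.4, 20.2 and 40.6 with DAC at 144 h. No treated library reached an untreated one. The change was -0.92 ± 0.29 (adjusted p = 0.0244) at 96 h and -0.96 ± 0.30 (adjusted p = 0.0227) at 144 h.

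In UCSD-AML1 the DCK sums overlapped, with 39.8, 27.5 and 49.7 untreated and 33.4, 36 and 43.7 with DAC at 96 h, and 36.3, 47 and 39.4 untreated and 36.1, 28 and 47.3 with DAC at 144 h. The change was -0.02 ± 0.29 (95% interval -0.63 to 0.60) and -0.16 ± 0.30 (-0.81 to 0.49). The difference between the lines was -0.90 ± 0.41 (adjusted p = 0.117) at 96 h and -0.81 ± 0.43 (adjusted p = 0.163) at 144 h, and the untreated lines were not called different (0.36 ± 0.29 and 0.46 ± 0.30). DCK was read from 22 to 64 reads per library.

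In ELF-153 at 96 h DCK-202, the decay target, went from 42.6, 25.6 and 45.6 to 20.8, 14.8 and 17.6. The coding transcript DCK-204 went from 4.48, 10.2 and 2.73 to 1.89, 3.49 and 6.85, with overlap. In UCSD-AML1 at 96 h coding DCK-205 went from 2.1, 3.67 and 3.15 up to 12.8, 8.99 and 6.8. Both DCK calls in ELF-153 were lost when only coding transcripts were summed (-0.49, adjusted p = 0.473, and -0.90, adjusted p = 0.154) and with the mitochondrial covariate (-0.58, adjusted p = 0.393, and -0.40, adjusted p = 0.487). They were lost too without ELF-153 untreated replicate 1 or 3 or treated replicate 1 or 2 at 96 h (adjusted p from 0.0503 to 0.09), without untreated replicate 2 or 3 or treated replicate 1 or 2 at 144 h (0.0613 to 0.104), and at 96 h with the 6 ELF-153 libraries alone (0.0517). The genes most like DCK were EEF1DP5, a pseudogene (r 0.844 and 0.874), the antisense gene AC093249.2 (0.887 and 0.837) and RNASEH2C, a subunit of RNase H2 (0.825 and 0.821).

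CMPK1, the kinase of the second phosphorylation step, had single libraries far from their group. At 96 h its sums were 1994, 1945 and 1670 in untreated UCSD-AML1, 980, 1093 and 2342 with DAC, 280, 473 and 488 in untreated ELF-153 and 608, 1535 and 642 with DAC. In each treated group 1 library stood far above its fellows (2342 and 1535); the groups of UCSD-AML1 overlapped and those of ELF-153 did not. These 2 libraries also had the highest mitochondrial rRNA share of their group. In UCSD-AML1 this was 63.8%, close to the 63.1% and 61.7% of its fellows, and in ELF-153 49.8% beside 37.3% and 43.2%. Whether the share bears on these single libraries was not tested. At 144 h the sums were 1562, 1727 and 836 in untreated UCSD-AML1, 741, 837 and 527 with DAC, 651, 266 and 384 in untreated ELF-153 and 548, 985 and 660 with DAC, so the treated and untreated libraries of each line overlapped.

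CMPK1 rose in ELF-153 at 96 h (1.07 ± 0.37, adjusted p = 0.0398) and fell in UCSD-AML1 at 144 h (-0.93 ± 0.35, adjusted p = 0.0479), and the changes differed between lines by 1.53 ± 0.52 (adjusted p = 0.0473) and 1.73 ± 0.50 (adjusted p = 0.0236). The other DAC effects were -0.46 ± 0.37 (UCSD-AML1, 96 h) and 0.80 ± 0.35 (ELF-153, 144 h, adjusted p = 0.0926). Untreated ELF-153 was lower than untreated UCSD-AML1 by 2.21 ± 0.37 (adjusted p = 0.000189) and 1.69 ± 0.35 (adjusted p = 0.00168). With the mitochondrial share as covariate the ELF-153 change was 0.05 (adjusted p = 0.963) at 96 h and -0.33 (0.387) at 144 h, the differences between untreated lines were -0.83 (0.361) and -0.44 (0.264), and the UCSD-AML1 change at 96 h was called (-1.17, 0.0369). The ELF-153 call at 96 h was also lost with no filter on low sums (adjusted p = 0.0567), with the 6 ELF-153 libraries alone (0.073) and without 6 of 12 libraries (each untreated UCSD-AML1 replicate, untreated ELF-153 replicates 1 and 3 and treated ELF-153 replicate 2; 0.64 and adjusted p = 0.186 for the last). The UCSD-AML1 call at 144 h was lost without 8 of 12 (UCSD-AML1 untreated replicates 1 and 2 and all treated ones, ELF-153 untreated replicate 3 and treated replicates 1 and 3; -0.73 and adjusted p = 0.163 without treated UCSD-AML1 replicate 3). It was lost too with TMM scaling (-0.76, adjusted p = 0.0879), edgeR (-0.76, 0.0761), DESeq2 (-0.75, 0.0585), no filter (0.0545) and coding transcripts only (0.0526). The line difference in effect at 96 h was lost with TMM scaling (1.32, adjusted p = 0.0687), edgeR (1.32, 0.0919), no filter (0.0707), coding transcripts only (0.0505), a pseudocount of 0.5 (0.0512) and the mitochondrial covariate (1.22, 0.0645), and at 144 h with that covariate (0.69, 0.173). It was lost without 9 of 12 libraries at 96 h (all but UCSD-AML1 treated replicate 3 and ELF-153 treated replicates 1 and 3; adjusted p up to 0.125) and without 6 of 12 at 144 h (UCSD-AML1 untreated replicates 1 and 2 and treated replicate 3, ELF-153 untreated replicates 2 and 3 and treated replicate 2; up to 0.0647).

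CDA, the deaminase that inactivates decitabine, was near 0 in ELF-153. Its sums in untreated cells at 96 h were 5.24, 3.67 and 4.73 in UCSD-AML1 (15 reads) and 0 in each ELF-153 library. Taking 3 reads over the ELF-153 group as its floor, the observed UCSD-AML1 mean was 4.46 times that floor. This covers counting error in ELF-153 only, not that of the 15 UCSD-AML1 reads. With DAC the sums were 2.95, 16.9 and 8.74 in UCSD-AML1 and 0, 0 and 0.978 in ELF-153, so the treated and untreated libraries of each line overlapped.

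At 144 h CDA sums were 10.6, 9.59 and 8.35 in untreated UCSD-AML1, 10.9, 16.6 and 7.88 with DAC, 5.08, 2.37 and 0 in untreated ELF-153 and 0, 0.918 and 1.1 with DAC. Untreated ELF-153 was lower than untreated UCSD-AML1 by 1.94 ± 0.60 (adjusted p = 0.0165), and neither DAC effect was called (0.23 ± 0.60 in UCSD-AML1 and -0.78 ± 0.60 in ELF-153). CDA passed the filter at 144 h only through UCSD-AML1 libraries (10.6 untreated, 10.9 and 16.6 with DAC), and no ELF-153 library reached 10. The line difference is thus not independent of the filter, and its p-value does not account for that selection. The line difference was lost with the mitochondrial covariate (-0.51, adjusted p = 0.68), with the replicate block (-1.75, adjusted p = 0.178) and without untreated ELF-153 replicate 3 (-1.21, adjusted p = 0.0793), and without that library the ELF-153 change with DAC was called (-1.51, adjusted p = 0.0447).

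RNA of CDA was set against RNA of DCK as the log2 ratio of CDA + 1 to DCK + 1 within a library. This ratio does not measure drug inactivation or activation. Most of the DCK sum lay on the decay target DCK-202 (60.9% at 96 h and 65.6% at 144 h). Where CDA is at 0 or near it, the ratio is set largely by DCK and by the pseudocount of 1. The ratio was -2.82 ± 0.28 (SD, n = 3) in untreated UCSD-AML1 and -5.64 ± 0.26 in untreated ELF-153 at 96 h, and -1.99 ± 0.27 and -4.38 ± 1.54 at 144 h. No ELF-153 library overlapped UCSD-AML1 in these untreated comparisons. The differences were -2.82 and -2.39, each with p = 0.1 in the exact two-sided permutation test, the smallest p that 3 against 3 libraries can give, and 0.2 after adjustment over the 6 comparisons made. With a pseudocount of 8 they were -0.95 and -1.17, and without untreated ELF-153 replicate 3 the 144 h difference was -1.57 (-3.10 without replicate 1). With DAC the ratio differed by 0.70 (exact permutation p = 0.4) and 0.39 (0.6) in UCSD-AML1 and by 1.25 (0.1) and 0.18 (1) in ELF-153 at 96 h and 144 h. With 3 against 3 libraries none of the 6 differences could reach a p below 0.05, so the test cannot decide whether they differ. In ELF-153, with CDA at or near 0, the ratio at 96 h follows DCK by construction, and its change with DAC was 0.82 with coding transcripts only or with a pseudocount of 8.

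DCTD, which deaminates dCMP and decitabine monophosphate, had sums of 43.7, 37.9 and 45.6 in untreated ELF-153 and 21.8, 14.8 and 10.8 with DAC at 96 h. All treated libraries were lower, and the change was -1.42 ± 0.30 (adjusted p = 0.00235); it was -1.17 (adjusted p = 0.0952) with the mitochondrial covariate. At 144 h the sums were 30.5, 28.4 and 33.1 untreated and 20.1, 11 and 25.3 with DAC, again without overlap but not called (-0.75 ± 0.34, adjusted p = 0.097). In UCSD-AML1 DCTD was not called (-0.29 ± 0.30 and 0.10 ± 0.34), and the difference between lines was -1.13 ± 0.42 (adjusted p = 0.0634) at 96 h and -0.85 ± 0.48 (adjusted p = 0.188) at 144 h.

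SAMHD1, which hydrolyses dNTPs and can take decitabine triphosphate as a substrate, moved in opposite directions in the lines. In UCSD-AML1 at 96 h its gene sums were 1311, 1237 and 1042 in untreated libraries and 678, 741 and 787 with DAC. At 144 h they were 1558, 1483 and 1013 untreated and 633, 508 and 766 with DAC. Every treated library was lower than every untreated one at both harvests.

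In ELF-153 the gene sums were 356, 280 and 305 untreated and 957, 1146 and 1035 with DAC at 96 h. At 144 h they were 271, 300 and 313 untreated and 1377, 1736 and 1554 with DAC. Every treated library was thus higher than every untreated one, and the mean was 3.33 times the untreated mean at 96 h and 5.28 times at 144 h. SAMHD1 fell by 0.70 ± 0.16 (SE; adjusted p = 0.0036) and 1.08 ± 0.20 (adjusted p = 0.000896) on the log2 scale in UCSD-AML1, and rose by 1.74 ± 0.16 (adjusted p = 2.04e-06) and 2.39 ± 0.20 (adjusted p = 1.11e-06) in ELF-153.

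The difference between the lines' SAMHD1 changes was 2.44 ± 0.23 at 96 h (adjusted p = 1.21e-05) and 3.47 ± 0.29 at 144 h (adjusted p = 5.53e-06). Untreated ELF-153 was lower than untreated UCSD-AML1 at 96 h (-1.93 ± 0.16, adjusted p = 2.67e-07) and at 144 h (-2.17 ± 0.20, adjusted p = 1.60e-06). The order of the group means at 144 h ran from treated ELF-153 (1555 ± 180, SD, n = 3) and untreated UCSD-AML1 (1351 ± 296), whose libraries overlap, through treated UCSD-AML1 (636 ± 129) to untreated ELF-153 (295 ± 21.1). These SAMHD1 calls held under every alternative run, including the mitochondrial share as covariate and each left-out library. Only 2 of 27 annotated SAMHD1 transcripts are in the tables, and TLDC2, which overlaps on the opposite strand, was at 0 in untreated cells of both lines at 96 h and reached at most 5.48 in any library.

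The genes whose pattern was most like that of SAMHD1, by the lower of the Pearson r over the 12 libraries of each table, were PKIB (0.969 at 96 h and 0.963 at 144 h), SAMD9L (0.960 and 0.949) and GBP1 (0.948 and 0.964). PKIB encodes a protein kinase A inhibitor and GBP1 a guanylate-binding GTPase. The libraries behind each r share the same 4 groups, so each r describes group means as much as single libraries. CMPK2, a mitochondrial UMP-CMP kinase on the list of other nucleotide kinases, had gene sums of 152, 195 and 180 untreated and 48.7, 60.4 and 66.4 treated in UCSD-AML1 at 144 h. They were 42.1, 41.5 and 53.4 untreated and 219, 241 and 234 treated in ELF-153. It fell by 0.61 ± 0.18 (adjusted p = 0.0173) and 1.57 ± 0.20 (adjusted p = 4.60e-05) in UCSD-AML1 at 96 h and 144 h and rose by 1.72 ± 0.18 (adjusted p = 8.09e-06) and 2.33 ± 0.20 (adjusted p = 1.22e-06) in ELF-153. Like SAMHD1, CMPK2 showed no overlap between treated and untreated libraries in either line.

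RRM2, the small reductase subunit, fell with DAC in both lines. In UCSD-AML1 its sums were 164, 154 and 189 untreated and 30.5, 27 and 28.2 with DAC at 96 h, and 88.4, 128 and 105 untreated and 10.1, 23.6 and 18 with DAC at 144 h. In ELF-153 they were 245, 261 and 201 untreated and 77.7, 78.5 and 87.1 with DAC at 96 h, and 253, 245 and 241 untreated and 69.5, 75.2 and 70.3 with DAC at 144 h. The groups were far apart in all 4 comparisons, and treated ELF-153 stayed above treated UCSD-AML1 in every library.

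The RRM2 change was -2.52 ± 0.19 (adjusted p = 2.90e-07) and -2.63 ± 0.27 (adjusted p = 9.03e-06) in UCSD-AML1 and -1.52 ± 0.19 (adjusted p = 2.98e-05) and -1.77 ± 0.27 (adjusted p = 0.0002) in ELF-153. The fall was smaller in ELF-153 at 96 h by 1.00 ± 0.27 (adjusted p = 0.0159), which became 0.79 (adjusted p = 0.0502) with TMM scaling, 0.83 (0.0558) with edgeR and 0.84 (0.0548) with DESeq2. At 144 h the difference of 0.86 ± 0.38 was not called (adjusted p = 0.104; 1.11 and 0.0422 without treated UCSD-AML1 replicate 2). Untreated ELF-153 was higher by 0.48 ± 0.19 (adjusted p = 0.0424) at 96 h and by 1.21 ± 0.27 (adjusted p = 0.00236) at 144 h. The 96 h line difference was lost with the mitochondrial covariate (0.53, adjusted p = 0.294), with the replicate block (0.45, 0.217), with no filter (0.105), with coding transcripts only (0.60, 0.268) and without untreated replicate 1 or 2 of UCSD-AML1 (0.103 and 0.137) or of ELF-153 (0.0865 and 0.124) or treated ELF-153 replicate 3 (0.0523).

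RRM2 has 3 annotated pseudogene copies, so its reads may be split. RRM2P3 rose in UCSD-AML1, from 885, 753 and 765 to 1147, 1134 and 1232 at 96 h (0.55 ± 0.17, adjusted p = 0.0171) and by 0.63 ± 0.18 (adjusted p = 0.0128) at 144 h. In the same line RRM2P2 changed by -4.31 ± 0.46 (adjusted p = 7.54e-06) and -4.21 ± 0.59 (adjusted p = 0.000108). These copies were chosen after their values were seen. The coding transcript RRM2-206 fell from 31.5, 15.6 and 36.3 to 0.984, 1.12 and 3.89 in UCSD-AML1 at 96 h and was at 50.4, 46.1 and 41.9 untreated and 15.2, 8.72 and 12.7 treated in ELF-153.

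The genes most like RRM2 were PIF1, a DNA helicase (r 0.983 and 0.985), TRIP13, an AAA+ ATPase of the spindle checkpoint (0.986 and 0.983), and CHAF1B, a chromatin assembly subunit (0.986 and 0.982). A list of 12 DNA replication genes (MCM2 to MCM7, PCNA, CDC6, CDT1, GINS1, GINS2, POLA1) was lower in all 12 of its members in each DAC effect, beside 19.6% and 26.2% of all features in UCSD-AML1 and 12.7% and 18% in ELF-153, with a median of -3.15 and -3.12 in UCSD-AML1 and -1.83 and -2.25 in ELF-153. Their summed level at 96 h was 14866 to 16352 untreated and 1537 to 1680 treated in UCSD-AML1, and 22479 to 23213 untreated and 5714 to 5879 treated in ELF-153. In bulk RNA fewer cells in S phase and less RNA per cell cannot be told apart.

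TYMS, which makes dTMP from dUMP, fell most of the members in UCSD-AML1 at 96 h and 144 h. Its sums there were 123, 90.7 and 79.6 untreated and 4.92, 11.2 and 9.71 with DAC at 96 h, and 61, 49.9 and 87.1 untreated and 5.04, 3.5 and 14.6 with DAC at 144 h. In ELF-153 they were 150, 158 and 150 untreated and 35, 42.7 and 33.3 with DAC at 96 h, and 139, 143 and 132 untreated and 44.8, 36.7 and 39.5 with DAC at 144 h. No treated library came near an untreated one of its line.

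The TYMS change was -3.40 ± 0.29 (adjusted p = 1.10e-06) and -3.12 ± 0.39 (adjusted p = 4.27e-05) in UCSD-AML1 and -2.02 ± 0.29 (adjusted p = 0.000119) and -1.76 ± 0.39 (adjusted p = 0.00309) in ELF-153; the last was -0.90 (adjusted p = 0.168) with the mitochondrial covariate. The fall was smaller in ELF-153 at 96 h by 1.38 ± 0.41 (adjusted p = 0.0268). That difference was lost with coding transcripts only (0.49, adjusted p = 0.629), with a pseudocount of 8 (0.83, 0.0611), and without untreated UCSD-AML1 replicate 1 (0.0749) or 2 (0.0507), treated UCSD-AML1 replicate 1 (0.0522) or treated ELF-153 replicate 2 (0.0613). At 144 h the difference of 1.36 ± 0.55 was not called (adjusted p = 0.0775), and it was called with the replicate block (1.36, 0.0371), with the mitochondrial covariate (2.15, 0.018) and without treated UCSD-AML1 replicate 3 (1.89, 0.00703).

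Untreated ELF-153 had more TYMS than untreated UCSD-AML1 at 144 h (1.09 ± 0.39, adjusted p = 0.0317) and was not called at 96 h (0.66 ± 0.29, adjusted p = 0.0655; 0.94 and 0.0117 with TMM scaling). With coding transcripts only, the 144 h difference was -0.02 (adjusted p = 0.988), where TYMS-203 held 23, 24 and 35.8 in UCSD-AML1 and 16.7, 36.7 and 31 in ELF-153. It was also lost with TMM scaling (0.98, 0.0532), with the mitochondrial covariate (0.14, 0.858) and without untreated UCSD-AML1 replicate 1 (0.0816) or 2 (0.113) or untreated ELF-153 replicate 1 (0.0555), 2 (0.0793) or 3 (0.0676). ENOSF1, which overlaps TYMS on the opposite strand, changed by -0.35 ± 0.15, -0.13 ± 0.15, -0.66 ± 0.16 and -0.34 ± 0.16 in UCSD-AML1 and ELF-153 at 96 h and in the same lines at 144 h, of which the third was called (adjusted p = 0.00454). It is not stated that counting used strand, so reads of the pair cannot be told apart with certainty.

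RRM1, the large reductase subunit, was read from few reads. In UCSD-AML1 at 96 h its sums were 23.1, 20.2 and 15.8 untreated and 7.87, 3.37 and 4.86 with DAC. The treated libraries were all lower, and the change was -1.74 ± 0.43 (adjusted p = 0.00564). In the other DAC effects the libraries overlapped and RRM1 was not called, with -0.75 ± 0.55 in UCSD-AML1 at 144 h and -0.32 ± 0.43 and -0.32 ± 0.55 in ELF-153 at 96 h and 144 h. The first 2 of these had 95% intervals from -1.93 to 0.43 and from -1.24 to 0.61.

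RRM2B, the reductase subunit used outside S phase, showed replicate values like those of CMPK1. Its sums at 96 h were 504, 1235 and 542 in treated ELF-153, against 944, 976 and 1976 in UCSD-AML1 given DAC, with the same replicates high. RRM2B rose in ELF-153 by 1.64 ± 0.35 (adjusted p = 0.00265) and 1.58 ± 0.46 (adjusted p = 0.0163) and was not called in UCSD-AML1 (0.16 ± 0.35 and -0.45 ± 0.46).

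Other genes of nucleotide metabolism, 66 in all, were taken by role, and 54 were tested at 96 h and 55 at 144 h. In UCSD-AML1 25 were lower, beside 19.6% of all features, and 6 higher, beside 19.7%, at 96 h, and 30 lower, beside 26.2%, and 3 higher, beside 20%, at 144 h. In ELF-153 19 were lower, beside 12.7%, and 11 higher, beside 20.1%, at 96 h, and 22 lower, beside 18%, and 12 higher, beside 20.4%, at 144 h. The counts of higher genes in ELF-153 lay near the share over all features. The median change was -0.69 and -0.94 in UCSD-AML1 and -0.38 and -0.49 in ELF-153, against the all-feature medians given above. Changes differed between the lines for 14 of 54 at 96 h, beside 25% of all features, and for 11 of 55 at 144 h, beside 29.6%, so in number they did not stand above the features as a whole. Of these, 13 were higher in ELF-153 at 96 h, beside 16.4%, and 8 at 144 h, beside 19.4%.

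Counts by role below stand beside the same shares of all features called lower, 19.6% and 26.2% in UCSD-AML1 and 12.7% and 18% in ELF-153 at 96 h and 144 h, and the lists are short. Of 12 kinases, 7 were lower and 1 higher in UCSD-AML1, and 5 lower and 2 higher in ELF-153, at each harvest. TK1, the S-phase thymidine kinase, fell from 19, 24.6 and 29.2 to 4.74, 5.23 and 6.85 in ELF-153 at 96 h (-1.93 ± 0.49, adjusted p = 0.00786) and by 3.07 ± 0.49 (adjusted p = 0.000241) in UCSD-AML1. Among 17 genes of nucleotidases and breakdown, thymidine phosphorylase TYMP rose most, from 5.81, 0 and 1.07 to 57.6, 89.9 and 88.9 in ELF-153 at 144 h (5.02 ± 0.68, adjusted p = 6.99e-05). DUT, the dUTPase that supplies dUMP to TYMS, fell in all 4 comparisons, by 1.75 ± 0.33 (adjusted p = 0.000949) and 2.26 ± 0.26 (adjusted p = 1.96e-05) in UCSD-AML1 and by 1.52 ± 0.33 (adjusted p = 0.00313) and 2.36 ± 0.26 (adjusted p = 1.05e-05) in ELF-153.

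Of 8 folate genes, which supply the methyl donor of TYMS, 5 and 7 were lower in UCSD-AML1, beside 19.6% and 26.2% of all features, and 5 and 6 in ELF-153, beside 12.7% and 18%, at 96 h and 144 h, with 0 and 1 higher in UCSD-AML1 and 1 and 0 in ELF-153. SHMT1, the cytosolic serine hydroxymethyltransferase, fell by 3.51 ± 0.33 (adjusted p = 2.26e-06) in UCSD-AML1 and 2.60 ± 0.33 (adjusted p = 3.35e-05) in ELF-153 at 96 h, and FPGS, which adds glutamate to folates, rose in UCSD-AML1 at 144 h (0.91 ± 0.22, adjusted p = 0.00442). Of 5 genes of de novo pyrimidine synthesis 2 and 4 were lower in UCSD-AML1 and 3 and 3 in ELF-153; DHODH, the mitochondrial dihydroorotate dehydrogenase, fell by 2.06 ± 0.42 (adjusted p = 0.00156) in ELF-153 at 144 h and was not called in UCSD-AML1 (-0.40 ± 0.42).

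Of 15 purine genes 10 and 11 were lower in UCSD-AML1, beside 19.6% and 26.2% of all features, and 4 and 6 in ELF-153, beside 12.7% and 18%, with 0 higher in UCSD-AML1 and 1 and 2 higher in ELF-153. HPRT1, the hypoxanthine salvage enzyme, fell by 2.61 ± 0.53 (adjusted p = 0.00157) and 2.19 ± 0.25 (adjusted p = 2.04e-05) in UCSD-AML1 and by 0.80 ± 0.25 (adjusted p = 0.0217) in ELF-153 at 144 h, with a difference between lines of 2.19 ± 0.75 (adjusted p = 0.0471) and 1.38 ± 0.35 (adjusted p = 0.0137). ADSSL1, an adenylosuccinate synthase, rose in ELF-153 by 1.18 ± 0.35 (adjusted p = 0.0177) and 1.75 ± 0.44 (adjusted p = 0.0073).

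**Figure D4:**
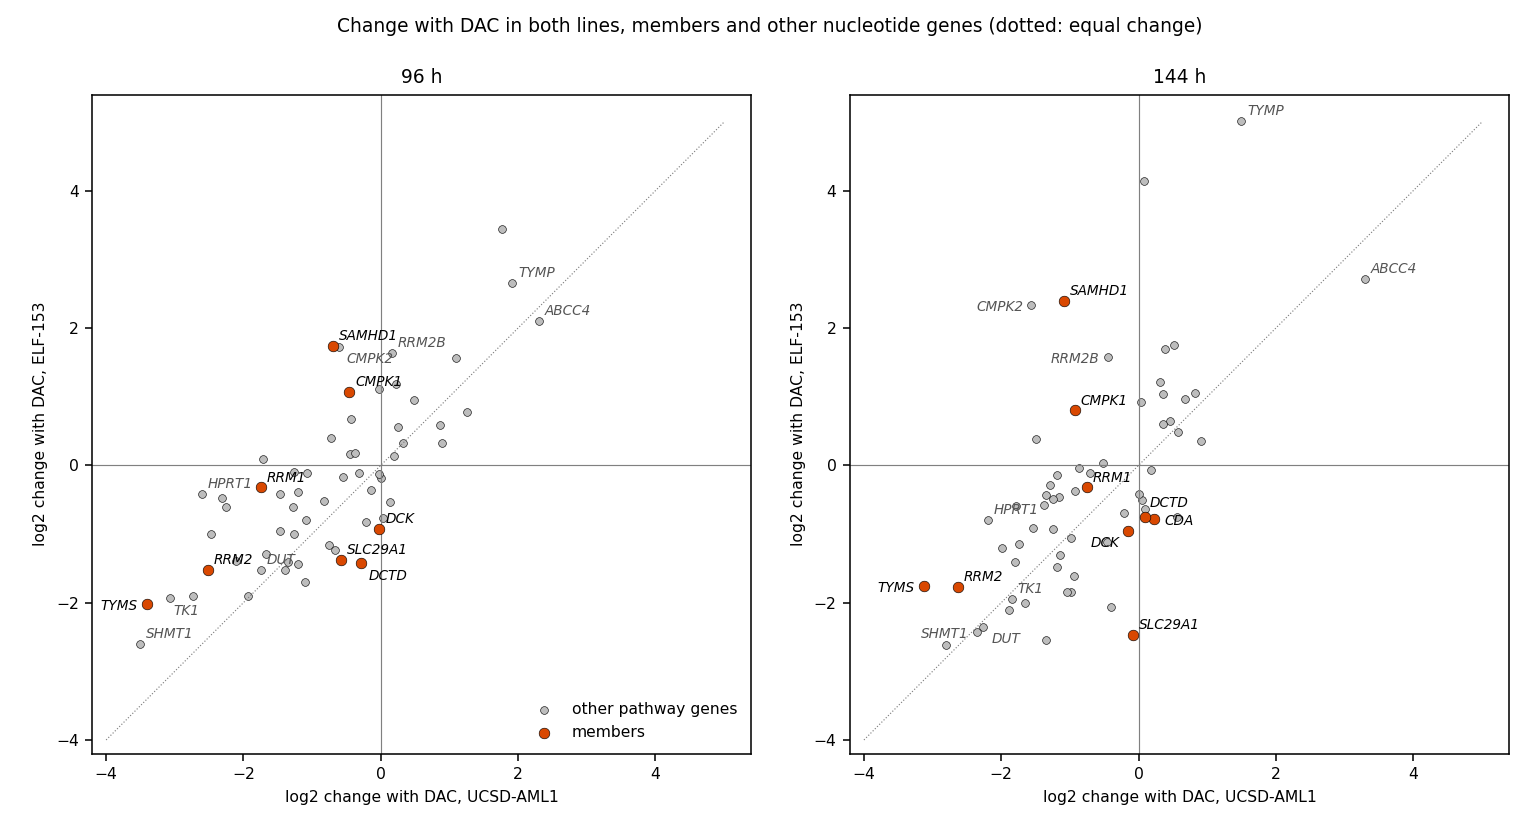
Points give the log2 change with DAC in UCSD-AML1 (horizontal) and in ELF-153 (vertical) at 96 h (left) and 144 h (right) for the tested members (orange) and the other nucleotide genes tested (grey); the dotted line marks an equal change. SAMHD1 and CMPK2 lie in the upper left quadrant at both harvests, at -1.08 and 2.39 and at -1.57 and 2.33 at 144 h, while TYMS, RRM2, TK1, DUT and SHMT1 lie in the lower left.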

How the data were processed

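Transcript tables of 12 libraries per harvest were used. Per the submitters' processing notes, FastQC, TopHat2, STAR, HTSeq, DESeq2 and hg19 were used, without versions; no source used here gives the role of each. The deposited values are signal: reads per transcript divided by 1 size factor per library, scaled within each table by the authors. All values (100%, tolerance 0.01) were whole multiples of the library's step, so reads were recovered. Of 204940 transcripts 181859 (88.7%) matched 52994 genes of GENCODE release 29 and were summed; 23081 stayed on their own.

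The test was limma 3.58.1 (R 4.3.3; robust eBayes with a trend; group means over 12 libraries). It ran on log2(gene sum + 1), with sums of 10 or more in at least 3 libraries and Benjamini-Hochberg adjustment over all features. The ratio of CDA to DCK used exact permutation in Python 3.11.15 (scipy 1.17.1). Intervals of log2 changes come from limma's standard errors and cover the scatter between libraries. The floor for CDA covers only the counting error of the group at 0. As values are scaled, edgeR 4.0.16 on recovered reads was an alternative. It called 7272 features for DAC in UCSD-AML1 and 6190 in ELF-153 at 96 h, and 8209 and 6920 at 144 h. Others were DESeq2 1.42.0, TMM, pseudocounts 0.5 and 8, no filter, coding transcripts only, the mitochondrial rRNA share as covariate, 6 libraries alone, a replicate block and leaving out each library. The script was tested on simulated data.

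Members and lists were chosen with earlier results of these data known. Beside the members, the rule named per role the largest rise and fall among called genes plus TK1, RRM2B and DUT, and the 3 genes most like DCK, CDA, SAMHD1 and RRM2; CDA was not tested in both tables and got none. A gene that the rule also named is not reported here. Overlapping genes and pseudogene copies were added after values were seen. Replicate pairs differed with a chi-square of 3.79 to 234 for each degree of freedom, beyond sampling noise, so each library was counted. All 3 same-numbered pairs of untreated and treated libraries correlated above 0.1 only in UCSD-AML1 at 144 h (0.13, 0.12 and 0.26, against -0.2 to 0.13 for other numbers); in ELF-153 at 96 h pairs 1 and 2 did (0.29 and 0.32) and pair 3 did not (-0.04, other numbers -0.32 to 0.11). The source of this pairing is the data, not the labels.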

Additional observations from a re-analysis of the deposited data

Results flagged for a closer look

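For members, 7 differences between the lines' changes with DAC (ELF-153 minus UCSD-AML1, log2 scale) passed limma's interaction test. They covered 4 of 8 tested members at 96 h, beside 25% of all features, and 3 of 9 at 144 h, beside 29.6%. The 144 h count lay near the share over all features. For SAMHD1 they were 2.44 at 96 h and 3.47 at 144 h, with opposite signs in the lines. For CMPK1 they were 1.53 and 1.73; the 96 h value was 1.22 (adjusted p = 0.0645) and the 144 h value 0.69 (adjusted p = 0.173) with the mitochondrial rRNA share as covariate. For SLC29A1 the difference was -2.39 at 144 h, a fall seen in ELF-153. For RRM2 it was 1.00 and for TYMS 1.38 at 96 h, both genes having fallen in each line and less so in ELF-153. The RRM2 difference was not called with TMM scaling in limma (adjusted p = 0.0502), edgeR (0.0558) or DESeq2 (0.0548). That of TYMS was not called in limma with coding transcripts only (0.49, adjusted p = 0.629) or a pseudocount of 8 (0.83, 0.0611). Groups of 3 libraries are too small for a test of single outlying libraries.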

How the results depend on the processing

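Of 653 member changes recomputed under 10 settings beside leaving out a library, 575 kept their direction and side of the threshold, 38 lost and 10 gained a call, and 30 turned direction, of which 1 had been called (TYMS between the untreated lines at 144 h, -0.02 with coding transcripts only). Leaving out a library kept 729 of 804, with 55 calls lost, 7 gained and 13 uncalled values turned. Many of these fits left out a library outside the groups compared. There the change itself cannot move, only its p-value, so the number kept overstates how stable the changes are. The cause of these changes was not tested.

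Other values that turned, none of them called, were the following. For DCK with DAC in UCSD-AML1 at 96 h they were 0.11 with TMM, 0.09 with edgeR, 0.06 with DESeq2, 0.42 with coding transcripts and 0.22 with the mitochondrial covariate, and at 144 h 0.00, 0.06 and 0.07 with TMM, edgeR and DESeq2. For DCK between untreated lines they were -0.43 and -0.44 with coding transcripts and -0.11 and -0.17 with the covariate at 96 h and 144 h. For SLC29A1 they were 0.07, 0.15 and 0.13 with TMM, edgeR and DESeq2 and 0.21 with the replicate block between untreated lines at 96 h, and 0.08, 0.18 and 0.19 with the same 3 tools for DAC in UCSD-AML1 at 144 h. For RRM1 they were 0.07, 0.09 and 0.07 between untreated lines at 96 h with these tools, and -0.06 with edgeR and -0.08 with DESeq2 for the line difference in effect at 144 h. With the covariate at 144 h they were -0.33 for CMPK1 and 0.38 for RRM1 with DAC in ELF-153, and -0.20 for SLC29A1, -0.03 for DCTD and -0.17 for RRM1 between untreated lines. Leaving out a library gave -0.24 to 0.17 (DCK) in UCSD-AML1 and -0.68 to 0.03 (RRM1) in ELF-153 at 96 h, and -0.45 to 0.23 (SLC29A1) between untreated lines at 96 h. At 144 h it gave -0.34 to 0.2 (SLC29A1), -0.02 to 0.3 (DCTD) and -0.34 to 0.02 (DCK) in UCSD-AML1, -0.7 to 0.1 (RRM1) in ELF-153 and -0.04 to 1.01 (RRM1) for the line difference in effect.

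With the mitochondrial covariate 3 members and 3613 features were called for DAC in ELF-153 at 96 h (7 and 6152 without it), 3 members at 144 h (5 without), 1 member and 4785 features between untreated lines at 96 h (3 and 10810), 2 members and 6086 features at 144 h (5 and 9467), and 2601 features for the line difference at 144 h (5408). As stated above, the covariate fit cannot separate the share from treatment or line where the shares do not overlap. The line difference at 96 h had 2 called members with edgeR and 2 with coding transcripts, against 4. Leaving out a library gave 4 to 7 members for DAC in ELF-153 at 96 h (4 without untreated replicate 1 or treated replicate 2), 2 to 5 for the line difference at 96 h, 3 to 5 between untreated lines at 144 h and 2915 to 7298 features for the line difference at 144 h. The CDA to DCK log2 ratio changed by 0.82 with a pseudocount of 8 and with coding transcripts in ELF-153 at 96 h (1.25 as reported), and between untreated lines by -0.95 and -2.03 at 96 h (-2.82) and by -1.17 with a pseudocount of 8 at 144 h (-2.39).

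With the replicate block 5858 features were called between untreated lines at 144 h, against 9467; among members it ended the calls of RRM2 (96 h) and CDA (144 h) between untreated lines and called TYMS for the line difference at 144 h. Line differences in effect were not fitted with 6 libraries alone. CDA, SLC29A2, RRM1 and most DCK values rest on few reads, which limits what could be called.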
